A study of Mus musculus with 6 samples.

Results

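The SOX transcription factors described here are 10 genes of the deposited table, Sox2, Sox3, Sox4, Sox5, Sox6, Sox8, Sox9, Sox10, Sox11 and Sox12, taken by gene name from its 23621 genes. They were chosen as the family members known from progenitors, neurons and glia of the developing cortex. RNA was sequenced from the cortex of newborn mice (postnatal day 0), 3 wild-type littermates and 3 littermates labelled as homozygous null mutants of Tle4 (Tle4-/-), which encodes a Groucho-family co-repressor. Both genotypes were on 1 mixed background of C57BL/6J, 129S6 and CD1. The samples came from whole dissected cortex, so fewer cells of a type and less RNA per cell cannot be told apart. The labels do not say which litter each library came from, so p-values measure the spread between these libraries only.

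SOX proteins bind DNA through an HMG box, a domain that sits in the minor groove and bends the helix. SOXB1 proteins (SOX2, SOX3) hold neural progenitors in an undifferentiated state, SOXC proteins (SOX4, SOX11, SOX12) act in newly born neurons, SOXD proteins (SOX5, SOX6) have no activation domain of their own and act with partners, and SOXE proteins (SOX8, SOX9, SOX10) specify glia. In cortical projection neurons SOX5 is known to repress Fezf2, and SOX4 and SOX11 to activate it through a distal enhancer.

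The 10 genes are set out below by the 90 bases of coding sequence that were most alike in all of them, which encode part of the HMG box. They show how the members group and how much sequence their reads could share. Capitals mark the 39 bases identical in all 10 genes. Sequences are from GENCODE M21 transcripts on GRCm38 and run 5′ to 3′.
Sox2: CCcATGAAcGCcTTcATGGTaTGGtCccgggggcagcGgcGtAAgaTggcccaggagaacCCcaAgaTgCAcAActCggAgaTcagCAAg
Sox3: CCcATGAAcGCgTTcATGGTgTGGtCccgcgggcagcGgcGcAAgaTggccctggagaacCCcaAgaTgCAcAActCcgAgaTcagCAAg
Sox4: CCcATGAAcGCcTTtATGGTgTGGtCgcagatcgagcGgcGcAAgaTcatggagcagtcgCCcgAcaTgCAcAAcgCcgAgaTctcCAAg
Sox11: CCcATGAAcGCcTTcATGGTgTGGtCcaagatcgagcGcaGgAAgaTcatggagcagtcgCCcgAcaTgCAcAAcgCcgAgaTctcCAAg
Sox12: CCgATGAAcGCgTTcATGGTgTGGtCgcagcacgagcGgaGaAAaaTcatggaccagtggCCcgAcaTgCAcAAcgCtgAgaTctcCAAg
Sox5: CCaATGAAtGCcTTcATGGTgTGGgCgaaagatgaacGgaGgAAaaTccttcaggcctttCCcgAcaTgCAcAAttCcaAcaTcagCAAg
Sox6: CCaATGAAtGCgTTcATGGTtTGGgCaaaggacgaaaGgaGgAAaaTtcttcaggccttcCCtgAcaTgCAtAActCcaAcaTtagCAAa
Sox8: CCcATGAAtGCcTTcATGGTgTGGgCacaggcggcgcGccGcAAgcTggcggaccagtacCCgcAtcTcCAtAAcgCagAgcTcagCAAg
Sox9: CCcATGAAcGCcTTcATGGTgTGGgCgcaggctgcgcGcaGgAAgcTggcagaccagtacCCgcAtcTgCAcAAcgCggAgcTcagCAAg
Sox10: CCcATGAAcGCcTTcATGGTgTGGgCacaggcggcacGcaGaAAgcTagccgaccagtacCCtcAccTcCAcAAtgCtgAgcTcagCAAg

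Within a subfamily these stretches were 85.6% to 93.3% identical (8 pairs), and between subfamilies 60.0% to 74.4% (37 pairs). Sox4 and Sox11 differed at 6 of the 90 bases, as did Sox2 and Sox3. Across whole transcripts the longest identical run between any 2 members was 48 bases, between Sox4 and Sox11, followed by 44 bases between Sox9 and Sox10. A read that extends beyond such a run differs between the transcripts compared. The sources used here do not give the read length or the handling of reads with several matches.

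The genes differ in structure as well. Sox2 (chromosome 3, 34650405 to 34652461), Sox3 (X, 60891366 to 60893430), Sox4 (13, 28948919 to 28953713) and Sox11 (12, 27334264 to 27342574) each have 1 annotated transcript of 1 exon. Sox12 (2, 152393611 to 152398063) has 2 transcripts of up to 2 exons. Sox5 spans 953553 bases of chromosome 6 (143828425 to 144781977) with 14 transcripts, and Sox6 567925 bases of chromosome 7 (115470872 to 116038796) with 16. Sox8 (17, 25565892 to 25570686), Sox9 (11, 112782224 to 112787760) and Sox10 (15, 79154913 to 79164490) have up to 3, 3 and 5 exons. All positions are those of the table on GRCm38, and 9 of the 10 members match GENCODE M21 exactly, Sox10 being the exception.

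The libraries held 18617408 to 21632607 counts, of which 65340 to 77249 fell on the 10 SOX genes. Tle4 fell in the mutant from 169 ± 27.8 to 81.0 ± 10.1 CPM (counts normalised to library size with TMM factors; SD, n = 3 each), with an edgeR adjusted p of 0.0377. The mutants thus kept 0.480 of the wild-type level, at 69.3 to 86.8 CPM, and the sources used here do not say which part of the gene the allele disrupts, so these counts do not show whether intact transcript remained. Xist, transcribed in females, had 11 to 37 counts in the wild types and 66194 to 79080 in the mutants, while reads of Y-linked Ddx3y numbered 1463 for wild-type replicate 1, 1891 for replicate 2 and 0 to 2 for the mutants. Wild-type replicate 3 had almost no counts of either gene (37 of Xist and 2 of Ddx3y), so it matched neither the other wild types nor the mutants in this pair. Xist and genotype separated the libraries in the same way and cannot be told apart. This bears on every gene compared between the genotypes, X-linked Sox3 among them. Without wild-type replicate 3, 0 of the 10 SOX genes passed the threshold, and Sox3 stood at a log2 fold change of -0.05. The libraries left in that fit still separated by Xist as by genotype, so it cannot tell Xist and genotype apart either. The cortex markers Emx1, Neurod6, Tbr1, Bcl11b and Slc17a7 were all present, with summed levels of 1129 to 1324 CPM in the wild types and 1151 to 1225 CPM in the mutants. The 7 meninges markers summed to 13.3 CPM in wild-type replicate 1 and to 171 to 471 CPM in the other libraries, none of the 7 being at 0. The choroid plexus transcript Ttr reached 1789 counts in mutant replicate 3, against 1 to 5 elsewhere.

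None of the SOX genes was called higher or lower in the mutant. Of the 10 members, all of which were tested, 0 passed an edgeR adjusted p of 0.05 and 0 had an unadjusted p under 0.05, and DESeq2 and limma-voom also called 0. Of all 16274 genes tested, 0.111% passed the adjusted threshold and 3.45% the unadjusted one. The CPM of the genotypes overlapped for all 10 members, where 7.93% of all genes had genotypes that did not overlap. Log2 fold changes (mutant over wild type) ran from -0.26 for Sox9 to 0.17 for Sox10, 4 above 0 and 6 below, with a median of -0.04 beside -0.01 over all genes. The 95% interval of the change lay within 2-fold in either direction for all 10 and within 1.5-fold for 7, the exceptions being Sox8, Sox9 and Sox10. Of all genes tested, 54.2% had an interval within 1.5-fold. The authors' deposited table gives all 10 an adjusted p of 1, and its smallest unadjusted p among them is 0.254, for Sox9.

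**Figure D1:**
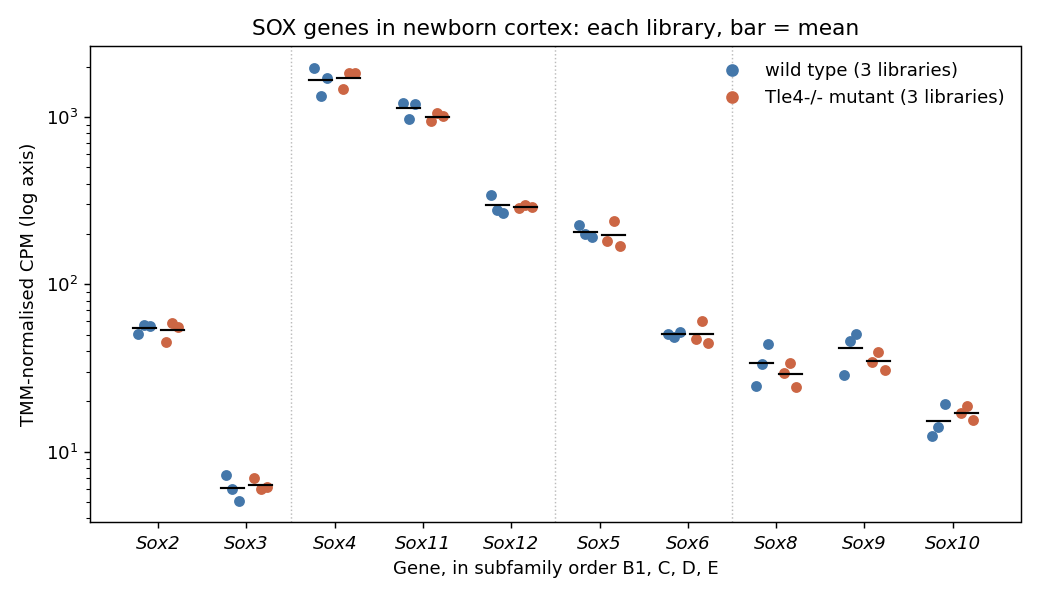
Level of each SOX gene in each library, as TMM-normalised CPM on a log axis, with wild-type libraries in blue and mutant libraries in orange and bars at the means. The points of the genotypes overlap for every gene, from Sox3 at 5.11 to 7.23 CPM to Sox4 at 1327 to 1973 CPM.

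**Figure D2:**
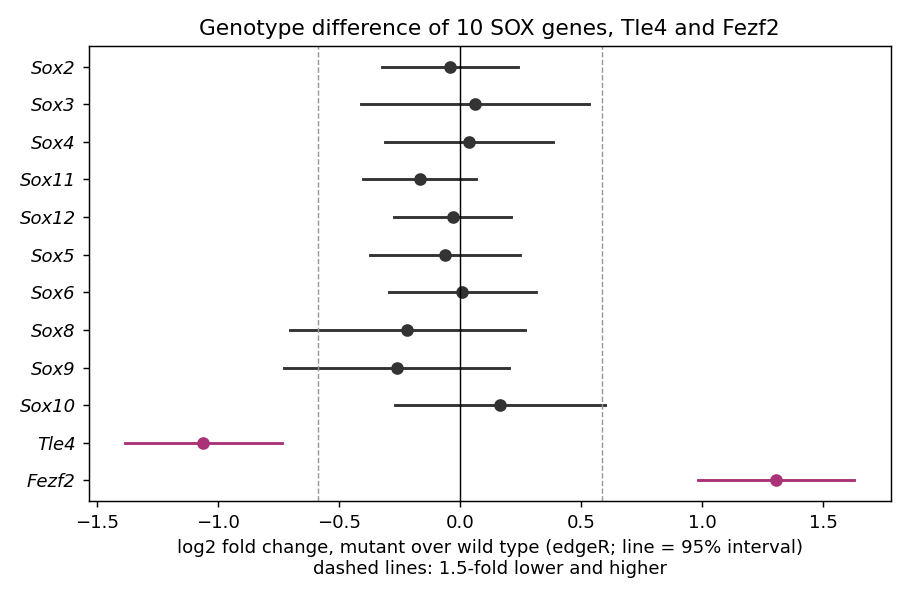
Log2 fold change of the 10 SOX genes, Tle4 and Fezf2, mutant over wild type, with 95% intervals from edgeR and dashed lines at a 1.5-fold change. The SOX intervals all include 0, while those of Tle4 and Fezf2 lie outside the dashed lines.

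Among the progenitor genes, Sox2, which maintains neural stem cells, was at 50.8, 57.3 and 56.4 CPM in the wild types and 45.5, 58.8 and 55.5 CPM in the mutants. The mutants held both the lowest and the highest library. Its log2 fold change was -0.04 (SE 0.13, 95% interval -0.32 to 0.24, edgeR adjusted p = 0.9996). Sox3, its X-linked relative, was at 7.23, 5.97 and 5.11 CPM in the wild types and 6.92, 6.02 and 6.15 CPM in the mutants, with a log2 fold change of 0.06 (-0.41 to 0.53). It had the fewest counts of the members described here, down to 95 in 1 library. Sox2 lies inside the long noncoding gene Sox2ot on the same strand, which had 193 to 252 counts per library. Reads of overlapping genes may be divided between them.

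The neuronal SOXC genes were the most abundant members. Sox4, a driver of neuronal gene expression in newly born neurons, was at 1973, 1327 and 1707 CPM in the wild types and 1463, 1832 and 1842 CPM in the mutants. The wild types spanned the whole range of the mutants, and the log2 fold change was 0.04 (SE 0.15, 95% interval -0.31 to 0.38). Sox11, which acts beside it, was at 1218, 970 and 1193 CPM in the wild types and 946, 1058 and 1009 CPM in the mutants. In this gene 2 of the 3 wild-type libraries lay above every mutant, and wild-type replicate 2 lay between the mutants. Its log2 fold change was -0.17 (SE 0.10, -0.40 to 0.07), with an edgeR unadjusted p of 0.143. Without wild-type replicate 2 it was -0.26 with an unadjusted p of 0.0181, and the edgeR adjusted p was 0.915. In that fit 1 of the 10 members had an unadjusted p under 0.05, beside 5.24% of all genes. Sox12, the weaker activator of the group, was at 343, 279 and 267 CPM in the wild types and within 284 to 297 CPM in the mutants (log2 fold change -0.03, -0.27 to 0.21).

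Of the SOXD genes, Sox5, a regulator of deep-layer and subplate neurons, was at 225, 201 and 191 CPM in the wild types and 182, 240 and 169 CPM in the mutants. The mutants lay on both sides of the wild types, and the log2 fold change was -0.06 (SE 0.14, 95% interval -0.37 to 0.25). Sox6, which acts in cortical progenitors and in interneurons born outside the cortex, was at 50.5, 48.6 and 52.1 CPM in the wild types and 47.1, 60.6 and 44.3 CPM in the mutants (0.01, -0.29 to 0.31). Its coefficient of variation was 3.49% among the wild types and 17.2% among the mutants, where mutant replicate 2 was highest and mutant replicate 3 lowest, as for Sox5. The transcripts listed within or antisense to Sox5 and Sox6 had 0 to 5 counts in each library, against 850 to 4590 for the genes themselves.

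The glial SOXE genes had the widest spread between libraries. Sox9, which directs progenitors towards astrocytes, was at 28.7, 46.0 and 50.3 CPM in the wild types and 34.2, 39.5 and 30.7 CPM in the mutants. Wild-type replicate 1 was the lowest of all 6 libraries and the other wild types the highest 2. Sox8, which acts with the other SOXE genes in glia, was at 24.7, 33.4 and 44.1 CPM in the wild types and 29.4, 34.1 and 24.4 CPM in the mutants. Sox10, the regulator of oligodendrocyte lineage cells, was at 12.5, 14.0 and 19.3 CPM in the wild types and 17.1, 18.7 and 15.5 CPM in the mutants. Wild-type replicate 3 was the highest library for all 3 genes. Their log2 fold changes were -0.26 for Sox9 (SE 0.20, 95% interval -0.73 to 0.20), -0.22 for Sox8 (SE 0.21, -0.70 to 0.27) and 0.17 for Sox10 (SE 0.19, -0.27 to 0.60).

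The values of Sox9, Sox8 and Sox10 depended on wild-type replicates 1 and 3. Replicate 1 was the library nearly free of meninges markers. Without wild-type replicate 1 the log2 fold change of Sox9 was -0.47 (95% interval -0.79 to -0.15, edgeR unadjusted p = 0.00986, adjusted p = 0.880). That of Sox8 was then -0.40 (-0.82 to 0.02) and that of Sox10 0.04. With a meninges score as a covariate, Sox9 stood at -0.43 (edgeR unadjusted p = 0.0196, adjusted p = 0.999) and Sox8 at -0.36. In each of these fits 1 of the 10 members had an unadjusted p under 0.05, beside 4.77% and 3.96% of all genes. Without wild-type replicate 3, the values were -0.10 for Sox9, 0.01 for Sox8 and 0.37 for Sox10. Wild-type replicate 1 had the highest CPM of Sox3, Sox4, Sox11 and Sox12. It also had the lowest summed level of the 15 radial glia and astroglial genes, at 1806 CPM against 1962 to 2549 CPM elsewhere. The 8 endothelial markers were lowest there too, at 159 CPM against 162 to 260 CPM. Wild-type replicate 3 came next lowest in both sums, at 1962 and 162 CPM, though it was highest for Sox8, Sox9 and Sox10. None of these markers was at 0 in wild-type replicate 1. The covariate fit cannot separate meninges from other traits of that library. The part of these markers in the SOX values was not tested.

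**Figure D3:**
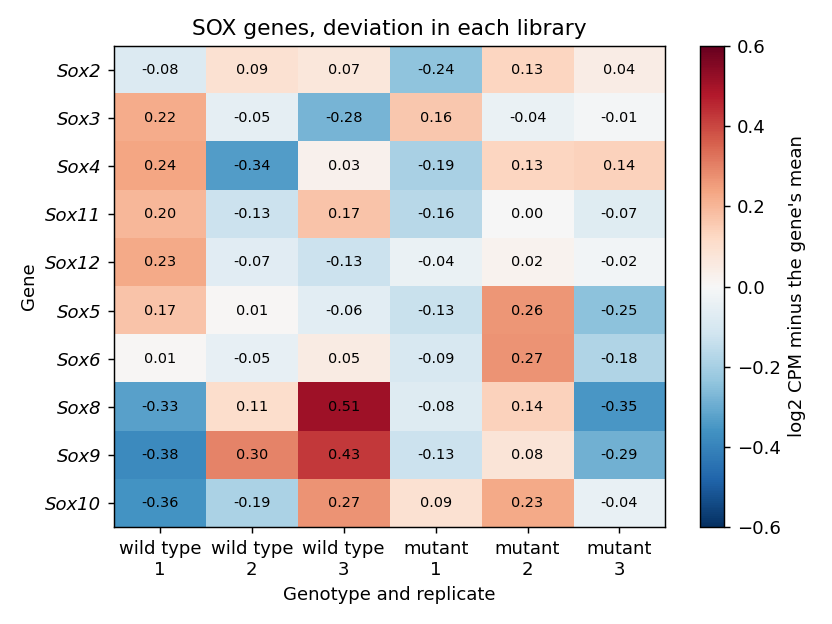
Deviation of each SOX gene in each library from its mean over the 6 libraries, in log2 CPM (red above, blue below). Wild-type replicate 1 is low for Sox8, Sox9 and Sox10 (-0.33, -0.38 and -0.36) and high for Sox4, Sox11 and Sox12 (0.24, 0.20 and 0.23).

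**Figure D4:**
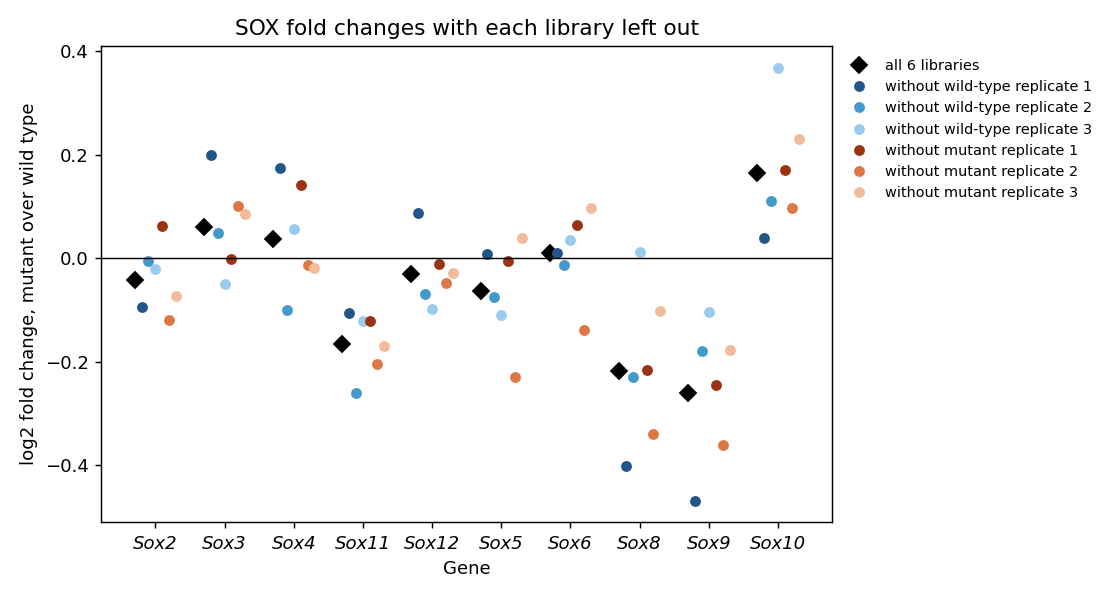
Log2 fold change of each SOX gene with all 6 libraries (black diamonds) and with each library left out (circles). Sox9 and Sox11 stay below 0 and Sox10 above 0 in these 6 fits, and the other 7 genes cross 0.

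Per length, on the scale of the authors' deposited FPKM, the members ranged over more than 2 orders of magnitude in both genotypes. Sox4 led at 352 ± 47.2 FPKM (SD over all 6 libraries), followed by Sox11 at 128 ± 12.9, Sox12 at 34.0 ± 2.71 and Sox2 at 26.3 ± 2.64. Each of these 4 lay above the next in all 6 libraries, with ranges that did not overlap. Sox5 (10.2 ± 1.36), Sox9 (9.25 ± 2.19), Sox8 (8.25 ± 1.96) and Sox10 (5.96 ± 0.985) followed, and the ranges of neighbours among these overlapped. Sox5 was above Sox9 in only 4 of the 6 libraries, though Sox9 was above Sox8 in all 6. Sox3 (3.01 ± 0.344) and Sox6 (1.95 ± 0.219) came last, without overlap with their neighbours.

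The 3 SOXC genes made up 86.3% to 90.9% of the summed FPKM of the 10 members in the wild types and 88.4% to 90.0% in the mutants. SOXB1 genes held 4.29% to 6.23% and 4.99% to 5.12%, SOXD genes 1.95% to 2.45% and 1.72% to 2.37%, and SOXE genes 2.74% to 5.10% and 3.26% to 4.35%. The genotypes overlapped in every one of these shares. The ratio of Sox4 to Sox11 in FPKM was 2.81, 2.37 and 2.48 among the wild types, against 2.68, 3.001 and 3.17 among the mutants. That of Sox11 to Sox5, the activator and the repressor of Fezf2, was 12.8, 11.4 and 14.8 among the wild types, against 12.3, 10.4 and 14.2 among the mutants. Both ratios overlapped between the genotypes.

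How the FPKM was made affects this order. The length that each member's counts and FPKM imply equalled, to within 0.0207%, the summed length of all its distinct annotated exons in 9 of the 10 members, so that overlapping exons of different transcripts were counted again. For the 4 genes with 1 exon, and for Sox9, this is the transcript's own length. For Sox12 it is 8624 bases where the exons cover 4453, for Sox6 25856 where they cover 14832, for Sox5 19659 where they cover 14376 and for Sox8 3844 where they cover 3118. Sox10 is the exception, at 2714 bases, and the table gives it other ends than GENCODE M21. On CPM per kilobase of covered exon, Sox12 stood at 65.9 ± 5.89 and Sox6 at 3.41 ± 0.380 (SD, 6 libraries). Sox8 then ranked above Sox9 and Sox6 above Sox3, the other members kept their ranks, and the SOXC share was 86.0% to 90.6% in the wild types and 88.0% to 89.8% in the mutants.

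**Figure D5:**
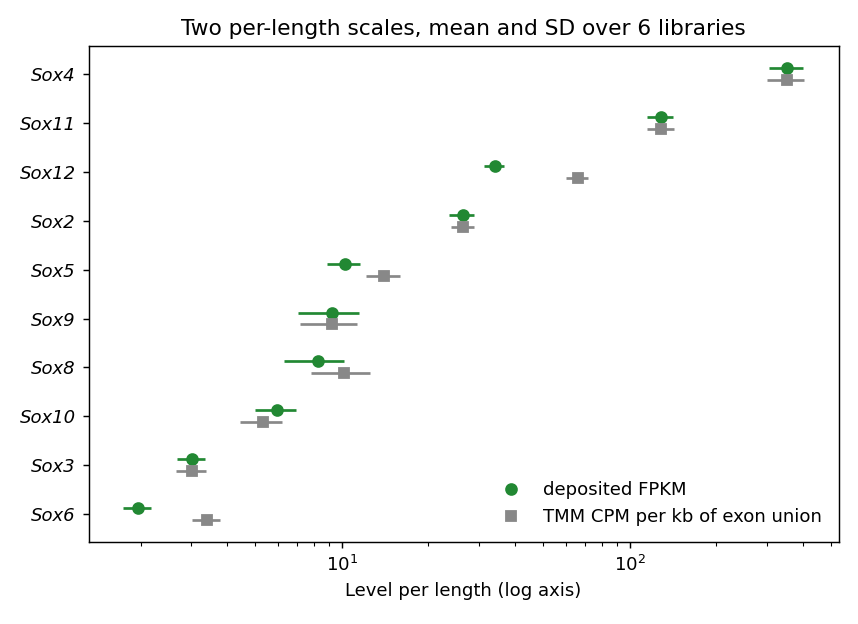
Level of each SOX gene per length on a log axis, mean and SD over 6 libraries, as the deposited FPKM (green circles) and as TMM-normalised CPM per kilobase of exon union (grey squares). The scales coincide for Sox2, Sox3, Sox4, Sox9 and Sox11 and separate most for Sox12 (34.0 and 65.9) and Sox6 (1.95 and 3.41).

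Of 10 other SOX genes listed, 9 were in the table and 6 had enough counts to test. None passed the threshold by edgeR, by which 0 also had an unadjusted p under 0.05. Sox7 and Sox17, factors of vessel endothelium, had the smallest p, with log2 fold changes of 0.59 (SE 0.32, 3.28 to 4.96 CPM) and -0.46 (SE 0.29, 3.59 to 2.61 CPM). Sox17, at 33 to 85 counts per library, was the only one of the 6 whose genotypes did not overlap (edgeR unadjusted p = 0.151). Of all genes tested, 7.93% did not overlap. Sox14, Sox15 and Sox30 had 0 to 17 counts per library and were not tested.

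Genes that SOX proteins act with or on were read from lists of fixed members. Fezf2, the regulator of subcerebral projection neurons, was at 77.9, 61.9 and 57.2 CPM in the wild types and 173, 140 and 175 CPM in the mutants. All mutants were above all wild types, and it rose 2.47-fold (log2 fold change 1.31, 95% interval 0.98 to 1.63, edgeR adjusted p = 0.0117). Of 6 genes downstream of SOX4 and SOX11 (Tubb3, Dcx, Map2, Tead2, Fezf2, Reln), 1 passed, which was Fezf2. Map2, a microtubule-associated protein of dendrites, came next at 0.20 (SE 0.14, edgeR adjusted p = 0.9996). In this list 5 lay above 0 and 1 below (median 0.10). Its summed levels did not overlap, at 4395 to 5116 CPM in the wild types and 5134 to 5356 CPM in the mutants. Of its single genes 1 of 6, Fezf2, did not overlap. Of the 6 deep-layer regulators beside SOX5, Fezf2 rose, Tle4 fell and 4 did not pass. Of those 4, the transcription factor Foxp2 gave -0.75 (SE 0.14, 68.7 to 40.9 CPM, edgeR unadjusted p = 0.000382, adjusted p = 0.173) and the GATA cofactor Zfpm2 -0.82 (SE 0.14, 32.0 to 18.1 CPM, unadjusted p = 0.000216, adjusted p = 0.121), and in both the genotypes did not overlap. Bcl11b (-0.07) and Tbr1 (-0.08) overlapped between the genotypes. In all, 4 of the 6 had an unadjusted p under 0.05 and 4 of the 6 did not overlap, beside 3.45% and 7.93% of all genes. The median of the list was -0.41 in log2 fold change, with 1 above 0 and 5 below. This list holds the mutated gene and genes already known to differ in these libraries, so it is not independent evidence.

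The POU-domain and PAX partners of SOXB1 proteins held no member past the threshold (0 of 5, median -0.04). Pou3f1 gave 0.25 (155 to 184 CPM, edgeR unadjusted p = 0.0530) and Pou3f4 -0.28 (16.8 to 13.8 CPM). Of 10 genes of interneurons from the medial ganglionic eminence, where Sox6 acts, 0 passed, 4 were above 0 and 6 below (median -0.06). Gad2, a GABA-synthesising enzyme, gave -0.34 (98.0 to 77.6 CPM) and Satb1, a chromatin organiser, 0.27 (180 to 216 CPM). Markers of the striatum, which adjoins the dissected cortex and holds many GABA-producing neurons, had lower summed levels in the mutants. The 10 markers summed to 82.2 to 129 CPM in the wild types and 60.0 to 73.3 CPM in the mutants, without overlap and with no marker at 0 in any library. Of the 10, 9 lay below 0 and 1 above (median -0.79). By edgeR 0 passed the threshold and 4 had an unadjusted p under 0.05, beside 3.45% of all genes. Ebf1, a transcription factor of striatal neurons, gave -1.39 (24.1 to 9.17 CPM, edgeR adjusted p = 0.134) and the dopamine receptor Drd2 -1.24 (4.72 to 1.99 CPM, adjusted p = 0.255). The markers did not all differ in this way. Drd1, the marker above 0, gave 0.01 (20.9 to 21.1 CPM) and Six3 gave -0.10 (4.45 to 4.15 CPM). Foxp2 and Gad2 also had lower means in the mutants, but Gad2 overlapped between the genotypes. It was at 88.4 to 105 CPM in the wild types and 54.6 to 99.7 CPM in the mutants. Among the mutants, replicate 1 had the lowest Gad2 (54.6 CPM) and the highest sum of striatal markers (73.3 CPM). The part of striatal tissue in the values of Foxp2, Gad2 and the SOX genes was not tested.

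The glial lists held 0 members past the threshold too. Of 15 genes of radial glia and astroglia, the cells in which Sox2 and Sox9 act, 14 lay above 0 and 1 below. Their median was 0.22, where Sox2 stood at -0.04 and Sox9 at -0.26. Their summed levels overlapped, at 1806 to 2351 CPM in the wild types and 2224 to 2549 CPM in the mutants. Wild-type replicates 1 and 3 were lowest, at 1806 and 1962 CPM. Ptprz1, a receptor phosphatase of radial glia, gave 0.33 (599 to 753 CPM, edgeR unadjusted p = 0.00934) and Nes, the intermediate filament nestin, 0.25 (71.4 to 85.1 CPM, unadjusted p = 0.0364). Both had an adjusted p of 0.9996. In all, 2 of the 15 had an unadjusted p under 0.05, beside 3.45% of all genes. Of 12 genes of the oligodendrocyte lineage, in which Sox8 and Sox10 act, 9 lay above 0 and 3 below (median 0.13). Their summed levels overlapped, at 313 to 357 CPM in the wild types and 354 to 418 CPM in the mutants. Wild-type replicate 3, the highest library for Sox8 and Sox10, was lowest here. By edgeR 1 of the 12 had an unadjusted p under 0.05, and 2 of the 12 did not overlap, beside 3.45% and 7.93% of all genes. Olig1, a transcription factor of that lineage, gave 0.31 (81.9 to 102 CPM, edgeR unadjusted p = 0.0349), and Erbb3, a neuregulin receptor, -0.73 (1.03 to 0.613 CPM).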

How the data were processed

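Gene counts and FPKM were taken from 1 table deposited by the authors for 6 libraries. Tools in the submitters' processing notes are edgeR, StringTie and HISAT2 2.0.4, with the builds GRCm38.p4 and mm10. The sources used here do not give the counting program, the strand setting or the annotation release. By the deposited headers, the table holds whole-number counts, FPKM, and the p-values and adjusted p-values of the authors' comparison. The deposited counts were used unchanged. The deposited FPKM served for levels per length and, as log2(FPKM + 1), for 1 alternative.

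Genes were kept by filterByExpr, scaled with TMM factors and compared by a robust quasi-likelihood fit in edgeR 4.0.16 (R 4.3.3) over all 16274 genes kept, 2-sided. P-values were adjusted by Benjamini-Hochberg and called at 0.05. SE was taken as the size of the log2 fold change divided by the root of its F statistic. The steps were tested on simulated data. Coding windows were found by comparing every in-frame 90-base window of Sox2 with the other members. Members and lists were chosen with earlier results of these data known. All members, Tle4 and Fezf2 are named, and from each list of family or pathway genes the 2 with the smallest p. Other genes were named as list members or after their values were seen. The cortex marker list was first drawn up with further genes, which are not reported here.

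Alternatives were DESeq2 1.42.0 (size factors, Wald test), limma-voom and limma (3.58.1), other filters, a replicate block, each library left out, and the fit without X and Y or mitochondrial genes. A meninges score as a covariate (mean centred log2 CPM of the marker list, prior count 2) was added after seeing the data.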

Additional observations from a re-analysis of the deposited data

How the results depend on the processing

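No SOX member passed the threshold under any of the 16 alternatives (0 of 10, or 0 of 9 without X and Y genes). Of 159 values of single members under these alternatives, 142 kept their direction and 17 changed sign. Of the 17, 12 came from leaving out 1 library. The other 5 were Sox6, at -0.0041 with limma-voom, -0.0033 with the replicate block, -0.0079 with limma on FPKM and -0.0034 with the meninges score, and Sox12, at 0.054 with the meninges score. Leaving out 1 library at a time gave -0.12 to 0.062 for Sox2, -0.050 to 0.20 for Sox3, -0.10 to 0.17 for Sox4, -0.23 to 0.038 for Sox5, -0.14 to 0.097 for Sox6, -0.40 to 0.011 for Sox8 and -0.099 to 0.087 for Sox12. It gave -0.47 to -0.10 for Sox9, -0.26 to -0.11 for Sox11 and 0.040 to 0.37 for Sox10.

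Over all genes, 18 passed the threshold, 58 by the DESeq2 Wald test and 9 with the replicate block, and 8 to 19 with 1 library left out, the lowest without mutant replicate 3. The cause was not tested. Same-numbered libraries did not deviate together (correlations of -0.08, 0.11 and -0.02 across genes), so the numbers were not taken as pairs. The ratio of Sox4 to Sox6, averaged over the 6 libraries, was 182 on deposited FPKM and 104 on CPM per kilobase of covered exon, the difference coming from the lengths used. Sox3, with 95 to 148 counts per library, and the SOXE genes gave the widest intervals.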

Other observations

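Only 7 ratios between members were computed, and those of the other pairs were not, so a separation need not be particular to 1 pair. Among the 7, the ratio of Sox9 to Sox10 in FPKM was the only 1 that did not overlap between the genotypes. It was 1.51, 2.15 and 1.71 among the wild types, against 1.31, 1.38 and 1.29 among the mutants. It was noticed after the values were seen and was not tested.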
